A study of Mus musculus with 4 samples.

Results

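Mitochondrial ribosomal proteins, the *Mrpl* and *Mrps* genes of the large and the small subunit, were on balance lower in Tc17 cells than in cytotoxic T lymphocytes (CTLs). The members were all genes whose annotated symbol starts with Mrpl or Mrps followed by a number, and where a gene had several probe sets the brightest on average across the 4 arrays stood for it. The rule gave 77 genes out of the 19938 that had a row of their own, 48 of the large and 29 of the small subunit, and used no difference between the groups. All 77 passed the filter on dim genes, which was on the mean over all 4 arrays, and were among the 14953 genes tested.

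Mitochondria hold their own ribosomes, which resemble those of bacteria and make only a few proteins, nearly all of them membrane subunits of the respiratory chain. The ribosomal RNAs and the messages they read come from mitochondrial DNA, whereas every ribosomal protein is encoded in the nucleus, made in the cytosol and imported. T cells that leave rest are known to build up mitochondria.

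CD8+ T cells were taken from spleen and lymph nodes of wild-type C57BL/6 mice by magnetic negative selection, whose age the labels do not state. Both kinds of culture held IL-2 and an antibody to IFN-γ for 2 days. Tc17 cultures, which turn to making IL-17, also received IL-6 and TGF-β, which CTL cultures did not. The study primed its mouse Tc17 cells through antibodies to CD3 and CD28, and the labels of these arrays name no such stimulus for either culture. There were 2 arrays per group, called biological replicates in the labels, which do not say that they came from separate animals or from pools, and p-values here speak of the spread among these 4 samples alone.

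The 4 array medians lay between 3.18 and 3.20 on the log2 scale. *Cd3e*, *Cd3d*, *Cd8a* and *Cd8b1* had values from 7.93 to 10.08, and 3 of the 4 were higher in Tc17 cells. *Cd4* (2.83 to 3.28), 3 B cell genes (2.36 to 3.25), 5 myeloid genes (2.26 to 3.03) and 2 natural killer genes (1.92 to 2.59) lay near the array medians or below. None of those tested was past the threshold, and *Ms4a1*, *Lyz2*, *Cd14* and both natural killer genes lay under the filter and were not tested. Erythroid markers had no row used here. *Ifng* was at 10.57 and 10.08 in CTLs and at 5.91 and 6.24 in Tc17 cells, and *Il17f* was at 2.94 and 3.35 against 9.22 and 8.70. Of the other markers of the cultures, *Il17a* was higher and *Gzmb* and *Eomes* were lower in Tc17 cells. *Il23r* did not pass, and neither did *Prf1*, a CTL marker whose Tc17 arrays (7.19 and 7.42) lay above its CTL arrays (7.08 and 7.02).

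Of the 77 members, 19 were lower in Tc17 cells at a limma adjusted p under 0.05 over all genes tested and 0 were higher. This was 24.7% of the members, beside 7.44% of all genes tested that were lower and 8.22% that were higher. At an unadjusted p under 0.05, 32 members were lower and 1, *Mrps21*, was higher, beside 12.8% of all genes lower and 14.2% higher. The median difference of the members, Tc17 minus CTL, was -0.28 on the log2 scale, and that of all genes was 0.02. The difference was negative for 65 members and positive for 12. Both Tc17 arrays lay below both CTL arrays for 49 members (63.6%), beside 24.8% of all genes. Both lay above for 5 members (6.49%), beside 29.6% of all genes, and the groups overlapped for 23. The members were brighter than the genes they are set beside, with a median mean level of 6.16 against 4.37 for all genes tested. With the filter at the median of the mean level, 21 members were lower, beside 11.9% of all genes. A lower signal in RNA from bulk cultures can come from less RNA per cell or from fewer cells that carry it, and these cannot be told apart. Because RMA gives each array nearly the same distribution, a loss is relative to the other transcripts of the same array.

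The number of calls depended on Tc17 replicate 2. Without it 4 members were lower, *Mrpl38*, *Mrpl47* and *Mrps18b* of the 19 together with *Mrpl22*, beside 3.93% of all genes, so the share of the members was then near that of all genes, and the calls of the other 16 were lost. Without Tc17 replicate 1 there were 23, beside 6.53% of all genes. Leaving out either CTL array left 12 past the threshold, of which 1 was *Mrpl52*, higher, when CTL replicate 1 was left out. The shares of all genes that were lower were then 4.35% without CTL replicate 1 and 5.7% without CTL replicate 2. A fit without an array leaves 1 group with a single sample, whose spread is taken to be that of the other group.

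**Figure D1:**
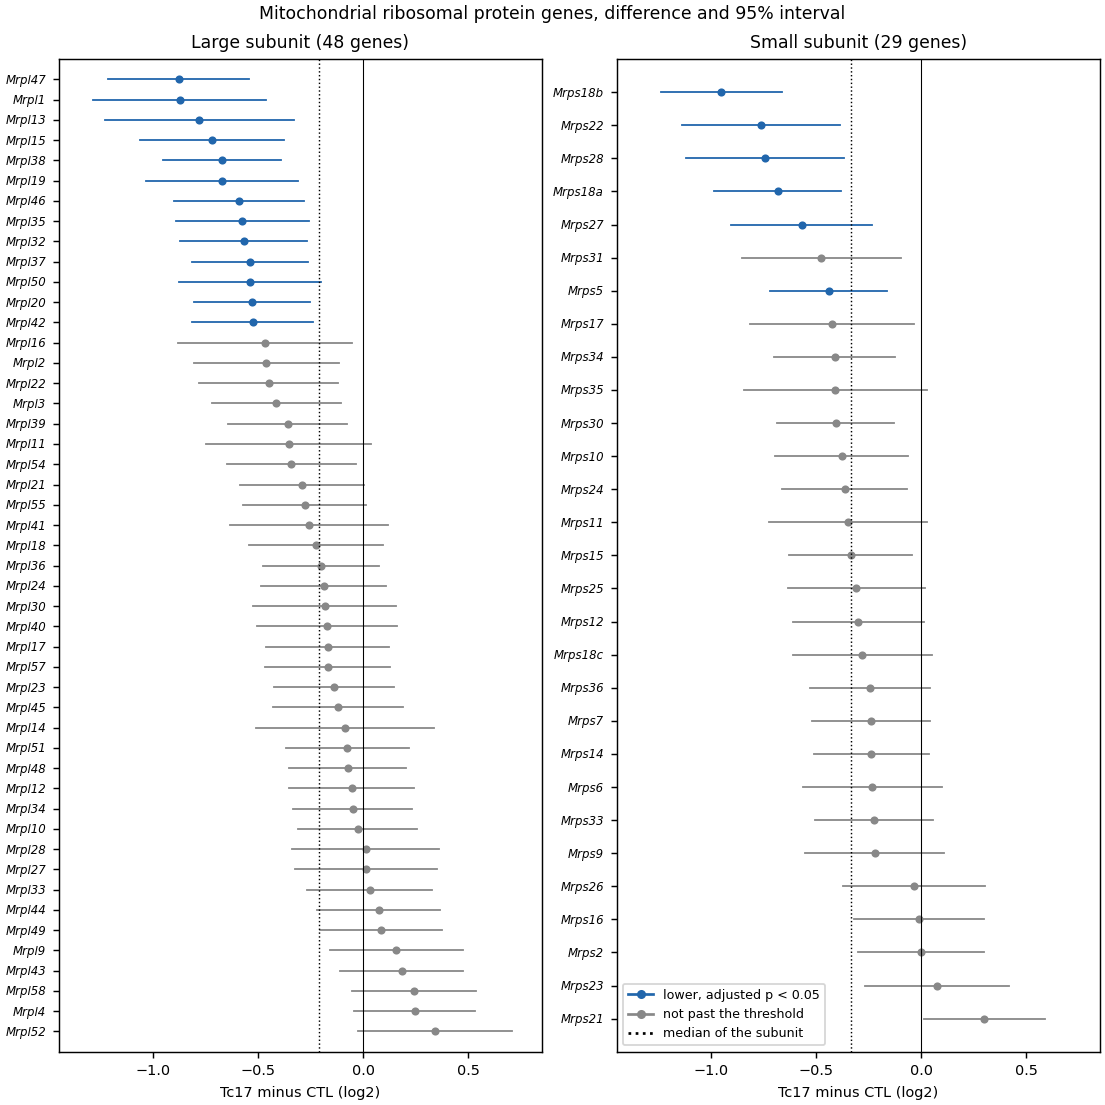
Difference of each of the 77 genes, Tc17 minus CTL on the log2 scale (horizontal axis), with the 95% interval of the limma fit, for the large subunit (left) and the small subunit (right). Points are genes ordered by their difference, blue where lower at an adjusted p under 0.05, the solid line is 0 and the dotted line the median of the subunit, -0.21 on the left and -0.33 on the right. All 19 blue points are on the negative side.

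The large subunit, which joins amino acids and holds the tunnel through which the new chain leaves, had 13 of 48 members lower (27.1%) and 0 higher. Its median difference was -0.21 (1.16-fold), with a range from -0.88 to 0.34, and 38 of its 48 differences were negative. The small subunit, which binds the message and checks the pairing of tRNAs, had 6 of 29 members lower (20.7%) and 0 higher. Its median was -0.33 (1.26-fold), its range was from -0.95 to 0.30, and 27 of 29 differences were negative. At an unadjusted p under 0.05 the large subunit had 19 lower and 0 higher, and the small subunit 13 lower and 1 higher. The groups were apart with Tc17 lower for 27 large and 22 small members, and overlapped for 17 and 6. The small subunit thus had the lower median and the smaller share past the threshold, and whether the subunits differ was not tested.

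*Mrps18b* had the largest decrease of all members. It encodes 1 of 3 relatives of the bacterial protein S18 and sits in the small subunit. Its values were 8.40 and 8.30 in the CTL arrays and 7.48 and 7.33 in the Tc17 arrays. Both Tc17 arrays were lower by far more than the replicates differed. The difference was -0.95 ± 0.13 (SE, log2; 1.93-fold, n = 2 per group, limma adjusted p = 0.000577). It passed under every leave-one-out fit, and was the only member past the threshold when every row of the table was tested.

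*Mrps18a*, which carries a small-subunit name but lies in the large subunit, was at 6.53 and 6.47 in CTLs and at 5.95 and 5.69 in Tc17 cells. The groups were apart, with a difference of -0.68 ± 0.14 (limma adjusted p = 0.0060). *Mrps18c*, which takes the place of the bacterial protein, was at 8.09 and 8.02 against 7.97 and 7.58. Its groups were apart as well, and its difference of -0.28 ± 0.15 did not pass (limma adjusted p = 0.270). Differences between the 3 genes were not tested.

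*Mrpl47*, the relative of bacterial L29 at the rim of the exit tunnel, had the largest decrease in the large subunit. It was at 5.10 and 4.69 in CTLs and at 4.01 and 4.02 in Tc17 cells. The Tc17 arrays nearly coincided, below a CTL pair that was spread by more. The difference was -0.88 ± 0.15 (1.84-fold, limma adjusted p = 0.0025). A dimmer probe set of *Mrpl47* was at 2.93, 2.85, 2.82 and 3.09, a difference of 0.06, and averaging both probe sets gave the gene a difference of -0.41, which was no longer past the threshold.

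The 250 bases before the transcription start of *Mrps18b* and *Mrpl47*, the members with the largest decrease in each subunit, and of the other S18 relatives are shown to set members past the threshold beside a close relative that was not. They are RefSeq sequences of build GRCm38.p6, 5′ to 3′ on the strand of the gene, and capitals mark letters of the motifs searched on both strands. The motifs were the E-box CACGTG bound by MYC and its relatives, CCGGAAG of the ETS family, which includes GABP, the NRF1 core TGCGCA, AANATGGC of YY1 and the CCAAT box CCAAT.
*Mrps18b* (chr17:35916441-35916690, minus strand): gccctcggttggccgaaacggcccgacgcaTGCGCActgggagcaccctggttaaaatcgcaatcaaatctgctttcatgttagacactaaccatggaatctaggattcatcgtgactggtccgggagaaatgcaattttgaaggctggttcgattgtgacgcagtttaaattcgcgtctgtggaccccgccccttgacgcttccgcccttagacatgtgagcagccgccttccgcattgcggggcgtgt
*Mrpl47* (chr3:32736756-32737005, minus strand): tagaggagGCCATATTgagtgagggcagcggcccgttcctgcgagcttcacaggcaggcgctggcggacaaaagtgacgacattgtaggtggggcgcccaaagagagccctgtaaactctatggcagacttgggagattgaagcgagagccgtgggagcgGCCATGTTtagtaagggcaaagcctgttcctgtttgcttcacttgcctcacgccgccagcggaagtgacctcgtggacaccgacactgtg
*Mrps18a* (chr17:46110754-46111003, plus strand): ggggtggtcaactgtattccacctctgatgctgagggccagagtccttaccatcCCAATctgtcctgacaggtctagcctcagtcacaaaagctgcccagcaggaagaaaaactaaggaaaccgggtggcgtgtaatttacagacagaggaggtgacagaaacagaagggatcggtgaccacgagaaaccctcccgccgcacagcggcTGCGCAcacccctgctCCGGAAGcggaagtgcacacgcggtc
*Mrps18c* (chr5:100798509-100798758, plus strand): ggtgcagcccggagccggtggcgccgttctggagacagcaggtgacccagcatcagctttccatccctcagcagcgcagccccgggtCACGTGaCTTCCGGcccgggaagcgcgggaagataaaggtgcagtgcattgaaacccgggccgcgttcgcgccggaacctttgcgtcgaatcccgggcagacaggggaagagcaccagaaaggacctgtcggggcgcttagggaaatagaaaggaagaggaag

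*Mrps18b* had an NRF1 core that began 220 bases before the start and none of the other motifs. *Mrpl47* had YY1 matches 242 and 90 bases before the start. *Mrps18a* held an ETS match at 26, an NRF1 core at 42 and a CCAAT box at 196 bases. *Mrps18c*, which did not pass, held an E-box at 163 and an ETS match at 156 bases, side by side without overlap. A match of letters is a description and not a bound site.

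Over the windows from 250 bases before to 50 after the start, 68 of the 77 members had an entry. Of these 68, 25 held the ETS motif (36.8%), beside 9.93% of all 27025 genes with a window, 21 held the NRF1 core (30.9%, beside 8.79%) and 21 the YY1 motif (30.9%, beside 6.96%). The E-box was in 5 (7.35%, beside 8.09%) and the CCAAT box in 26 (38.2%, beside 41.1%). Of the 14 members lower in Tc17 cells that had a window, 7 held the YY1 motif, 6 the CCAAT box, 4 the ETS motif, 3 the NRF1 core and 2 the E-box. Of the 54 others, 14, 20, 21, 18 and 3 did. No motif was in every member that was lower.

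Among the core proteins of the large subunit inherited from bacteria, *Mrpl1*, whose bacterial relative forms the stalk by which used tRNAs leave, was at 6.25 and 6.07 in CTLs and at 5.61 and 4.97 in Tc17 cells. The groups were apart, but the Tc17 arrays differed from each other by more than the CTL arrays did. Its difference was -0.87 ± 0.19 (limma adjusted p = 0.0085). *Mrpl13*, which joins early in the assembly of the bacterial subunit, was at 6.13 and 5.74 against 5.48 and 4.83, again with Tc17 replicate 2 the lowest, and differed by -0.78 ± 0.20 (limma adjusted p = 0.0239). *Mrpl15*, the relative of L15, was at 5.54 and 5.61 against 5.07 and 4.63 and differed by -0.72 ± 0.16 (limma adjusted p = 0.0091). *Mrpl1* and *Mrpl13* were each past the threshold in 2 of 4 fits that left out an array, and *Mrpl15* in 3.

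*Mrpl19*, *Mrpl35*, *Mrpl32* and *Mrpl20*, relatives of the bacterial proteins of the same numbers, were lower with smaller differences. They were -0.67, -0.58, -0.57 and -0.53, and both Tc17 arrays lay below both CTL arrays for each. *Mrpl32* is made as a precursor that a protease of the inner membrane must cut before it is built in. *Mrpl20*, whose bacterial relative is needed for assembly, had tight replicates, at 5.99 and 5.92 in CTLs and at 5.42 and 5.43 in Tc17 cells. Of the 30 large-subunit members with a bacterial relative, 8 were lower, with a median of -0.25.

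The large-subunit proteins found only in mitochondria had 5 of 18 lower, with a median of -0.17. *Mrpl38*, part of the central protuberance at the top of the subunit, was at 7.18 and 7.05 in CTLs and at 6.43 and 6.46 in Tc17 cells. The gap between the groups was wide against both replicate pairs, and the difference was -0.67 ± 0.13 (1.59-fold, limma adjusted p = 0.0043). *Mrpl46*, also of the protuberance, differed by -0.59, from 5.87 and 6.17 to 5.47 and 5.38. *Mrpl37* and *Mrpl50* differed by -0.54 each. *Mrpl37* stood at 6.46 and 6.43 against 5.91 and 5.90, whereas *Mrpl50* was at 5.49 and 5.89 against 5.10 and 5.21, with a wider CTL pair. *Mrpl42*, at 3.04 and 2.90 against 2.52 and 2.37, differed by -0.53. Its Tc17 values lay under 2.59, the mean level below which genes were left out, where background compresses differences. *Mrpl38* was, with *Mrpl47* and *Mrps18b*, past the threshold whichever array was left out.

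In the small subunit *Mrps22*, found only in mitochondria, was at 6.26 and 6.27 in CTLs and at 5.78 and 5.23 in Tc17 cells. The CTL arrays coincided and Tc17 replicate 2 lay well below replicate 1, with a difference of -0.76 ± 0.17 (1.70-fold, limma adjusted p = 0.0109). *Mrps28* was at 5.16 and 5.38 against 4.78 and 4.27, a difference of -0.74 ± 0.17 (limma adjusted p = 0.0125). *Mrps27*, a protein with the pentatricopeptide repeats that bind RNA, was at 5.57 and 5.90 against 5.29 and 5.04, and differed by -0.57 ± 0.15 (limma adjusted p = 0.0275). The groups were apart for all 3. *Mrps5*, the relative of a bacterial protein that bears on the accuracy of decoding, had very close CTL arrays at 6.49 and 6.48 and Tc17 arrays at 6.09 and 5.99. Its difference of -0.44 ± 0.13 (limma adjusted p = 0.0370) was past the threshold in 0 of the 4 fits that left out an array, and was lost as well when its probe sets were averaged (-0.38). Of 18 small-subunit members with a bacterial relative, 4 were lower (median -0.32), and of 11 found only in mitochondria 2 were (median -0.41).

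**Figure D2:**
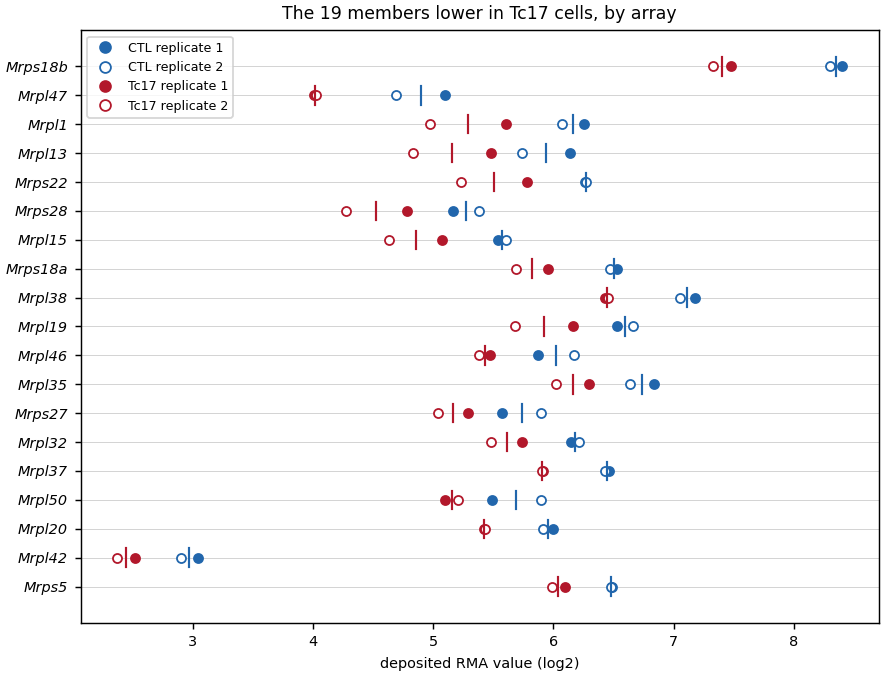
Deposited RMA values on the log2 scale (horizontal axis) of the 19 members lower in Tc17 cells (rows, by size of the difference). Each circle is an array (CTL blue, Tc17 red, replicate 1 filled, replicate 2 open), and bars mark group means. In each row both red circles lie left of both blue ones, and *Mrps18b* falls from 8.40 and 8.30 to 7.48 and 7.33.

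Some members carry names that do not match their place. *Mrps30* and *Mrps18a* lie in the large subunit, and *Mrps36* was later found to be a part of the 2-oxoglutarate dehydrogenase complex. *Mrps30* was at 5.40 and 5.38 against 5.03 and 4.93, with groups apart, and its difference of -0.41 ± 0.13 just missed the threshold (limma adjusted p = 0.0513). *Mrps36*, dim at 3.30 and 3.37 against 3.17 and 3.02, differed by -0.24 and did not pass. Counted by place, 14 of 50 large-subunit members (median -0.24) and 5 of 26 small-subunit members (median -0.32) were lower.

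Groups by position in the large subunit were set after the values were seen. At the rim of the exit tunnel 1 of 6 proteins was lower, with a median of -0.18. In the central protuberance 2 of 8 were, with a median of -0.20. None of the 3 proteins of the stalk that recruits translation factors passed in limma, and 0 had an unadjusted p under 0.05. The shares lower were 24.7% of all members and 7.44% of all genes. In groups this small the counts cannot show whether a position differs from the members as a whole, which was not tested. Of the 3 stalk proteins, *Mrpl12*, which is also known to bind the mitochondrial RNA polymerase, was at 6.46 and 6.70 in CTLs and at 6.51 and 6.54 in Tc17 cells. The Tc17 arrays of *Mrpl12* lay between the CTL arrays, and the difference was -0.06 with a 95% interval from -0.35 to 0.24. *Mrpl10* was at 6.85 and 6.98 against 6.93 and 6.84, which overlapped, with a difference of -0.03 (interval -0.31 to 0.26). *Mrpl11*, at 6.84 and 6.69 against 6.70 and 6.12, overlapped too, with a difference of -0.36 (interval -0.75 to 0.04), and was past the threshold without Tc17 replicate 1.

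The members with the smallest differences were *Mrpl28* (0.01), *Mrpl27* (0.01) and *Mrpl10* in the large subunit. In the small subunit they were *Mrps2* (-0.0007), *Mrps16* (-0.01) and *Mrps26* (-0.03). Their groups overlapped. The widest 95% interval among these 6 was that of *Mrpl28*, from -0.34 to 0.36, so decreases of the median size of the members cannot be told from none. Their signs are not settled, since *Mrpl28* and *Mrpl27* were negative with median centring, which moves all differences by the same amount, and the others were positive with cyclic loess.

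No member rose past the threshold, and 5 had both Tc17 arrays above both CTL arrays, namely *Mrpl52*, *Mrps21*, *Mrpl4*, *Mrpl58* and *Mrpl43*. *Mrpl52* was at 6.47 and 5.98 in CTLs and at 6.65 and 6.48 in Tc17 cells, a difference of 0.34 ± 0.17 (limma adjusted p = 0.216). *Mrps21* was at 7.23 and 7.03 against 7.42 and 7.44, a difference of 0.30 ± 0.13 (limma adjusted p = 0.166). The gap between the groups was narrow for *Mrpl52* and wider for *Mrps21*. *Mrpl58*, a hydrolase that frees stalled ribosomes and is also built into the large subunit, was at 6.81 and 6.83 against 7.18 and 6.94 and differed by 0.24 (limma adjusted p = 0.293). *Mrpl4* differed by 0.24 and *Mrpl43* by 0.18.

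Signals of different probe sets cannot be compared as levels of different transcripts. The members with the highest signal were *Mrpl18* (mean over the 4 arrays 8.45), *Mrps15* (8.07) and *Mrpl24* (8.03), and their differences of -0.22, -0.33 and -0.19 did not pass. *Mrpl18*, the relative of the bacterial protein that holds the 5S rRNA, was at 8.47 and 8.66 in CTLs and at 8.49 and 8.19 in Tc17 cells, with overlapping groups. *Mrps15* was at 8.27 and 8.20 against 8.01 and 7.79, and *Mrpl24*, a tunnel protein, at 8.01 and 8.24 against 7.99 and 7.88, both apart. The lowest signals were those of *Mrpl42* (2.71), *Mrps36* (3.21) and *Mrps11* (3.92). *Mrps11* was at 4.24 and 3.95 against 3.52 and 3.98, which overlapped.

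The Tc17 arrays were not alike in the members. Replicate 2 lay below replicate 1 for 59 of 77 members (76.6%), beside 54.8% of all genes tested, and the median of replicate 2 minus replicate 1 was -0.12, beside -0.02. Taken against the CTL mean, the median of the members was -0.18 in replicate 1 and -0.34 in replicate 2. Both medians were negative. In the CTL arrays replicate 2 was lower for 45 members, with a median of -0.06. The shift was not limited to the members, since replicate 2 was the lower Tc17 array for 52 of 54 cytosolic ribosomal protein genes (median -0.12). Replicate 2 was also the lower CTL array for 41 of these 54 (median -0.05). The part of Tc17 replicate 2 in the calls beyond the fits that left out an array was not tested.

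**Figure D3:**
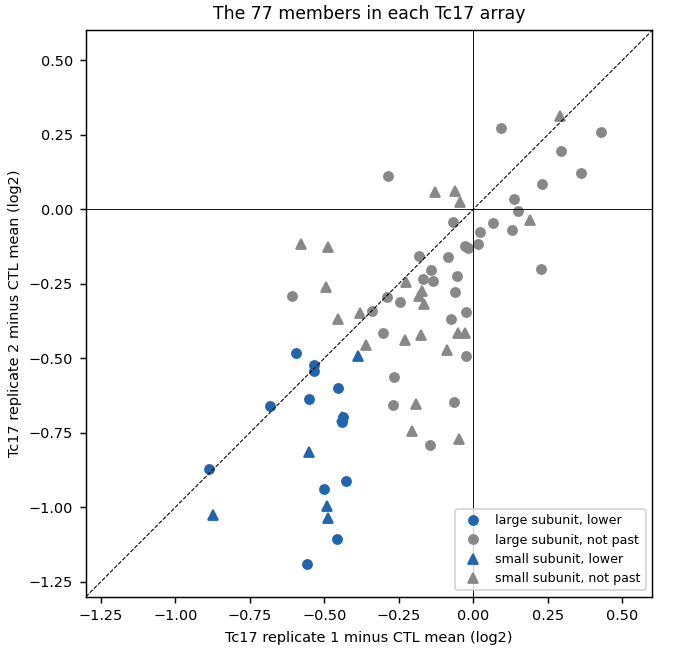
Each of the 77 members in Tc17 replicate 1 (horizontal axis) and in Tc17 replicate 2 (vertical axis), as the value minus the mean of the CTL arrays on the log2 scale. Circles are large and triangles small subunit members, blue where lower at an adjusted p under 0.05, and the dashed line marks equal values. Most points lie in the lower left and 59 of 77 lie under the dashed line.

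Ribosomal proteins that carry other names had 2 of 4 tested lower (beside 7.44% of all genes), with a median of -0.64. *Ptcd3*, a repeat protein at the entry of the message on the small subunit, was at 6.59 and 6.45 in CTLs and at 5.61 and 5.51 in Tc17 cells. Its groups were far apart, with a difference of -0.96 ± 0.13 (limma adjusted p = 0.000521). *Gadd45gip1*, a large-subunit protein, was at 6.20 and 6.10 against 5.52 and 5.51, a difference of -0.63 ± 0.13 (limma adjusted p = 0.00575). *Chchd1* differed by -0.65 (limma adjusted p = 0.0615) and *Dap3*, a GTP-binding protein of the small subunit, by -0.11.

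Of 14 factors that work on the mitochondrial ribosome, 3 were lower (21.4%) and 1 was higher (7.14%), with a median of -0.11, beside 7.44% and 8.22% of all genes. *Tsfm*, which reloads the elongation factor that brings tRNAs, was at 6.77 and 6.83 in CTLs and at 6.16 and 6.06 in Tc17 cells (difference -0.69 ± 0.13). *Gfm2*, a GTPase that splits the subunits after termination, was at 5.96 and 6.08 against 5.48 and 5.30 (difference -0.63 ± 0.13). *Mrrf*, its partner in that step, went the other way, at 6.16 and 5.82 against 6.43 and 6.69. Its difference of 0.57 ± 0.15 (limma adjusted p = 0.0278) was lost when CTL replicate 2 (0.40) or Tc17 replicate 2 (0.45) was left out. The call of *Gfm2* was lost without Tc17 replicate 2 (-0.54).

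Proteins that build the ribosome or modify its RNA had 4 of 27 lower (14.8%) and 0 higher, with a median of -0.12. The largest decreases were in *Trmt10c*, a tRNA methyltransferase that is also a part of the RNase P of mitochondria (-0.77 ± 0.15), and in the assembly GTPase *Mtg1* (-0.67 ± 0.14). The tRNA synthetases of mitochondria had 2 of 16 lower (12.5%) and 0 higher, with a median of -0.07. In lists this short a few genes separate these shares from the 7.44% of all genes. These were *Rars2* (-0.68 ± 0.14) and *Yars2* (-0.62 ± 0.13), which load arginine and tyrosine. The calls of *Mtg1*, *Rars2* and *Yars2* were lost without Tc17 replicate 2, and that of *Mtg1* also without CTL replicate 1 (-0.55). Transcripts of the 13 proteins encoded in mitochondrial DNA were not analysed here.

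Genes for the upkeep and transcription of mitochondrial DNA had 6 of 14 lower (42.9%) and 0 higher, beside 7.44% and 8.22% of all genes. Their median was -0.34. *Tfam*, which packs mitochondrial DNA and starts its transcription, was at 5.65 and 6.17 in CTLs and at 5.29 and 4.89 in Tc17 cells. The groups were apart with wide pairs in both, and the difference of -0.82 ± 0.19 (limma adjusted p = 0.0124) did not pass without CTL replicate 2 or Tc17 replicate 2. *Pnpt1*, an exoribonuclease of mitochondrial RNA, was at 7.40 and 7.37 against 6.79 and 6.60 (difference -0.70 ± 0.13).

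The import machinery and the chaperones that fold imported proteins had 13 of 28 lower (46.4%) and 0 higher, with a median of -0.39. The shares of all genes were 7.44% and 8.22%. Both Tc17 arrays were below both CTL arrays for 23 of the 28 (82.1%), beside 24.8% of all genes. *Timm8a1*, a small chaperone between the membranes, was at 6.69 and 6.58 in CTLs and at 5.47 and 5.26 in Tc17 cells (difference -1.27 ± 0.13, limma adjusted p = 0.0001). *Hspd1*, the chaperonin HSP60, was at 9.92 and 10.06 against 9.10 and 8.74 (difference -1.07 ± 0.15, limma adjusted p = 0.000631). In both genes the Tc17 arrays were far below the CTL arrays. Over the 113 tested genes of all these lists and the regulators, 32 were lower (28.3%) and 1 was higher (0.885%). The shares of all genes were 7.44% and 8.22%, and the median of the 113 was -0.19. At an unadjusted p under 0.05 in limma 44 were lower (38.9%) and 4 higher (3.54%), beside 12.8% and 14.2% of all genes. Of the 4 that were higher, 1 was an assembly factor, 2 were genes of mitochondrial DNA and its transcription, and 0 were synthetases, import genes or regulators. Without Tc17 replicate 2 fewer of the 113 passed, and their median was -0.12, beside 0.02 for all genes.

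Among the regulators of nuclear genes for mitochondria, 2 of 10 tested were lower (20.0%, beside 7.44% of all genes) and 0 were higher. *Pprc1*, a coactivator of the PGC-1 family, was at 6.79 and 6.55 in CTLs and at 5.96 and 5.53 in Tc17 cells (difference -0.93 ± 0.16, limma adjusted p = 0.0026). *Myc*, which drives growth and ribosome synthesis, was at 9.86 and 9.49 against 8.70 and 8.89 (difference -0.88 ± 0.15, limma adjusted p = 0.0025). Both had groups far apart. *Nrf1* (-0.06), the GABP genes *Gabpa* (-0.14) and *Gabpb1* (-0.29) and *Yy1* (0.06) were not past the threshold, and other ETS factors and those of the CCAAT box were not in the list. *Gabpb1* was past it without Tc17 replicate 1 (-0.55) and at -0.03 without Tc17 replicate 2. Also not past the threshold were *Max* (0.30), the partner of MYC, *Mycn* (-0.0011), the nuclear receptor gene *Esrra* (0.14) and the coactivator gene *Ppargc1b* (-0.10). *Ppargc1a* lay under the filter, at 2.28 to 2.69.

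The products of the mitochondrial ribosome work beside nuclear-encoded subunits of the respiratory chain and the ATP synthase. Of 80 such genes tested, 3 were lower (3.75%) and 1 was higher (1.25%), beside 7.44% and 8.22% of all genes. Their median was -0.10. *Uqcr10* (-0.70 ± 0.15) and *Uqcrq* (-0.63 ± 0.14) of complex III and *Atp5g1* (-0.65 ± 0.16) of the ATP synthase were lower, and *Uqcrh*, also of complex III, was higher (0.47 ± 0.13). Of 54 cytosolic ribosomal protein genes 1 was lower (1.85%) and 0 were higher, with a median of -0.02, and at an unadjusted p under 0.05 in limma 2 were lower and 0 higher. The 1 past the threshold was *Rpl12*, at 6.09 and 5.27 in CTLs and at 5.06 and 4.28 in Tc17 cells, with wide pairs in both groups. The 54 genes were brighter than the members, with a median mean level of 10.35 against 6.16. Whether this level bears on the size of their differences was not tested. The members' share, 24.7%, was above both, and differences between lists were not tested.

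**Figure D4:**
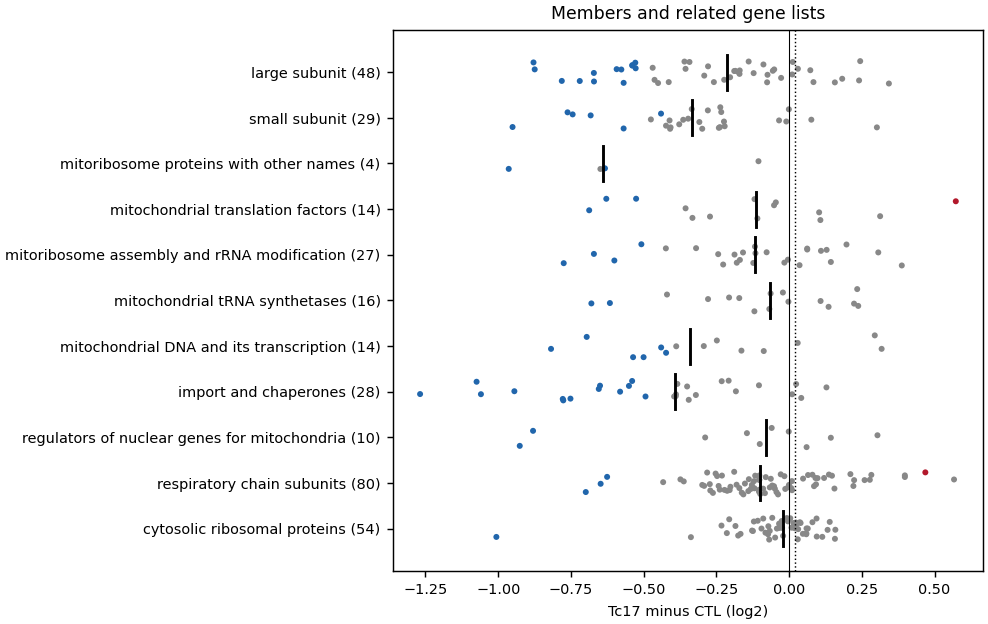
Differences, Tc17 minus CTL on the log2 scale (horizontal axis), of the tested genes of both subunits and of the related lists (rows, number of genes in brackets). Points are genes, blue where lower, red where higher and grey where not past an adjusted p of 0.05, black bars are list medians, the solid line is 0 and the dotted line the median of all genes, 0.02. The bars of both subunits lie at -0.21 and -0.33, and that of cytosolic ribosomal proteins at -0.02. Those of import and chaperones (-0.39) and of ribosomal proteins with other names (-0.64) lie further left.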

How the data were processed

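Transcript levels of 2 CTL and 2 Tc17 cultures were measured on whole-transcript arrays, 1 per sample, after 2 cycles of cDNA synthesis per the labels. The authors deposited RMA values, which were taken as log2 from their range (1.18 to 13.70), since neither the log base nor the version of RMA was given in the sources used here. RMA corrects background and sets the arrays to 1 distribution, so a shift of all transcripts cannot be seen, and no detection calls came with the table.

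Of 35557 rows, the platform annotation gave 21789 one symbol, 1621 several and 12147 none. Rows with several or none were left out, among them 1 shared by *Mrpl53* and another gene. All 77 members matched a RefSeq gene by identifier. Genes with a mean under the 25th percentile (2.59) were left out. Tc17 minus CTL was fitted with lmFit and eBayes of limma 3.58.1 in R 4.3.3, two-sided and unpaired, with Benjamini-Hochberg adjustment over 14953 genes and a threshold of 0.05. The eBayes step draws the spread of each gene toward that of all genes tested (8.98 prior beside 2 residual degrees of freedom). The SEs, intervals and p-values given here thus do not rest on the replicates of 1 gene alone. The script was tested on simulated data. An exact permutation test of 2 against 2 arrays cannot go below p = 0.333, and the number of arrays limits the precision. The labels do not say whether a shared replicate number means a shared animal or day. Replicate 1 minus replicate 2 correlated between the groups at 0.02 over the genes tested, which cannot settle this.

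The members and lists were chosen with earlier results of these data known. Named were the members past the threshold (at most 12 per subunit), the 3 brightest, the 3 dimmest, the 3 per subunit with the smallest difference, 7 with a special place or role, and from each list the 2 largest changes past the threshold in each direction, with all regulators. Genes named outside this rule were picked after their values were seen. Figures were drawn with matplotlib 3.10.9 in Python 3.11.15.

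Alternatives were each array left out, subunits by place, the thresholds the study set for its RNA-seq, a replicate block, all rows of the table, averaged probe sets, median centring, cyclic loess, robust moderation with an intensity trend, a filter at the median, and no filter.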

Additional observations from a re-analysis of the deposited data

How the results depend on the processing

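The median differences of both subunits stayed negative under every alternative run, from -0.31 to -0.14 in the large and from -0.41 to -0.20 in the small subunit when 1 array was left out. Counts of calls moved more. When 1 array was left out, 3 to 15 large and 1 to 8 small members were lower, 0 to 1 large members were higher, 15 to 32 genes of the pathway lists were lower and 0 to 2 higher, and 1421 to 1924 of all genes were past the threshold. The lowest counts of decreases came without Tc17 replicate 2. With every row of the table tested, 684 rows passed. Lower were 0 large members, 1 small member and 3 pathway genes, and 0 pathway genes were higher. The cause of this drop was not tested. In that fit 182 of 19938 genes were lower (0.913%), so the share of the members was near that of all genes. At the study's RNA-seq thresholds (adjusted p below 0.01, change of 0.75 or more in log2), 919 genes passed. Lower were 2 large members, 1 small member and 11 pathway genes, and 0 were higher. At these thresholds 411 of 14953 genes were lower (2.75%), so the share of the members was near that of all genes. A filter at the median gave 2 pathway genes higher in place of 1. Median centring moved the median of all genes from 0.02 to -0.03 and the split from 1113 lower and 1229 higher to 1311 and 1026, and called 24 members. With the replicate block 14 large and 6 small members and 2322 genes passed, and all 19 members remained. Whether a shared replicate number pairs the samples is not stated in the labels.

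Reversals concerned small differences. Median centring gave -0.040 for *Mrpl28* and -0.038 for *Mrpl27*, the mean of the probe sets -0.067 for *Mrpl27*, and cyclic loess 0.014 for *Mrpl10*, 0.0081 for *Mrps2*, 0.042 for *Mrps16* and 0.018 for *Mrps26*. With 1 array left out, the values of these 6 and of 4 others among the named genes had both signs, from -0.21 to 0.24 for *Mrpl28*, -0.20 to 0.23 for *Mrpl27*, -0.090 to 0.036 for *Mrpl10*, -0.11 to 0.11 for *Mrps2*, -0.16 to 0.14 for *Mrps16*, -0.23 to 0.16 for *Mrps26*, -0.18 to 0.063 for *Mrpl12*, -0.045 to 0.042 for *Mycn*, -0.14 to 0.018 for *Nrf1* and -0.038 to 0.16 for *Yy1*.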

Other observations

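Probe sets other than the brightest were read for 8 members. For *Mrps5* (-0.32), *Mrps33* (-0.18), *Mrps36* (-0.33), *Mrpl23* (-0.11) and *Mrpl51* (-0.06) the dimmer probe set had the sign of the one used. For *Mrpl47* (0.06), *Mrpl41* (0.08) and *Mrpl27* (-0.15) it had the other sign, with means of 2.92, 3.38 and 3.94 that were below those of the rows used (4.46, 6.32 and 5.80). The row that *Mrpl53* shares with *Ccdc142* was at 4.60 and 4.76 in CTLs and at 4.59 and 4.49 in Tc17 cells, a difference of -0.14 that cannot be given to either gene.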
